A study of Mus musculus with 6 samples.

Results

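The genes described here act in mitosis, in the spindle and at the kinetochore. A list of 59 mouse symbols was matched by NCBI gene number to the deposited tables, which hold 16749 genes in all, and each of the 59 was found in at least 1 library. The libraries are of RNA from CD8+ T cells that were sorted out of the iLN, an abbreviation the submitters leave unexplained, of C57BL/6 mice that carried tumors and had been given the platinum drug oxaliplatin. The 3 ID2KO libraries came from Cd4creId2f/f mice and the 3 WT libraries from Id2f/f mice without Cre, so both groups carried the floxed gene, both had tumors and oxaliplatin, and Cre was present in ID2KO alone. Cd4cre is switched on in the thymus while T cells develop, so Id2 is deleted in the CD4+ lineage as well as in the CD8+ one. Age, sex, tumor type and the number of animals behind a sample are not given in the labels, and a p-value here reflects only how far these samples scatter, part of which may be technical. An effect of Cre cannot be told apart from that of losing Id2.

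Mitosis is started by cyclin B and Cdk1, with the Polo and Aurora kinases. Kinetochores, protein assemblies on the centromeres, then attach chromosomes to the spindle, kinesin motors shape the spindle, and condensin compacts the chromosomes. The spindle checkpoint holds the anaphase-promoting complex, a ubiquitin ligase, until all chromosomes are attached, and the complex then destroys cyclin B and securin. Most genes of this programme are transcribed only in the G2 and M phases of dividing cells, while resting T cells keep them off, so their mRNA is widely read as a sign of proliferation. In bulk RNA, fewer dividing cells and less of these mRNAs per cell cannot be told apart.

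Levels are FPKM, reads scaled to transcript length and to library size, as deposited by the authors. Fold changes are ID2KO over WT, from edgeR on the deposited expected counts rounded to whole numbers. A gene passes at a Benjamini-Hochberg adjusted p under 0.05 over all 10890 genes with at least 1 FPKM in at least 3 libraries. The 3 libraries could be those of 1 group alone. The libraries held between 7699181 and 7990095 expected counts in ID2KO and between 8307284 and 8495123 in WT. Id2 itself had 1.67, 2.64 and 2.12 FPKM in ID2KO replicates 1 to 3, against 370.98, 146.76 and 149.01 FPKM in WT. Cd8a had 196.14 to 231.77 FPKM in ID2KO and 199.92 to 221.29 FPKM in WT, and Cd4 at most 2.12 FPKM in ID2KO and 2.97 FPKM in WT. The summed FPKM of 8 B cell markers was 474, 1977 and 427 in ID2KO replicates 1 to 3, against 635, 2085 and 2449 in WT. Most of each sum was Cd74, at 399, 1676 and 354 FPKM in ID2KO and 530, 1785 and 2064 FPKM in WT.

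Nearly all of the mitosis genes were lower in ID2KO. Of the 58 tested, 55 fell, Smc4 rose, and Bub3 and Pttg1 did not pass. Over all genes tested, 8.77% fell and 3.14% rose. The median log2 fold change of the 58 was -2.42, against 0.01 over all genes tested, with quartiles of -2.95 and -1.39. More than 4-fold lower were 38 of the 58, against 2.09% of all genes tested, and 9 were more than 8-fold lower. In each of the 58 the ID2KO and WT libraries did not overlap in FPKM. A fall without overlap was seen in 16.8% of all genes tested and a rise without overlap in 15.3%. Cdc25c was left untested by the filter on low values.

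Reads of the 59 genes made up 0.176%, 0.198% and 0.175% of the expected counts in ID2KO replicates 1 to 3, against 0.384%, 0.344% and 0.492% in WT. Smc4 alone accounted for 0.0716%, 0.0644% and 0.0711% in ID2KO, and for 0.0442%, 0.0441% and 0.042% in WT. Without Smc4 the shares were 0.104%, 0.133% and 0.104% in ID2KO and 0.34%, 0.3% and 0.45% in WT. The median gene of the list stood at 2.67, 4.83 and 2.57 FPKM in ID2KO and at 15.9, 15.6 and 20.5 FPKM in WT. At least 10 FPKM was reached by 10, 17 and 11 of the 59 genes in ID2KO, and by 41, 37 and 47 in WT.

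The libraries of a group differed in the same way for most of these genes. In 51 of the 59 genes the highest of the 3 ID2KO levels was that of replicate 2, and in 56 the highest WT level was that of replicate 3. The 55 genes that fell had a median of 14.2%, 25.1% and 13% of their WT mean in ID2KO replicates 1 to 3, and the WT libraries stood at 92.1%, 80.7% and 126%. ID2KO replicate 2 also had the highest B cell marker sum of its group, and WT replicate 3 that of its own. In WT replicate 1 the B cell marker sum was the lowest of its group. When B cell marker level entered the fit as a term, 54 of the 58 fell, with a median of -2.25. Without ID2KO replicate 2 the count was 54 and the median -2.71, and without WT replicate 3 they were 47 and -2.24.

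**Figure D1:**
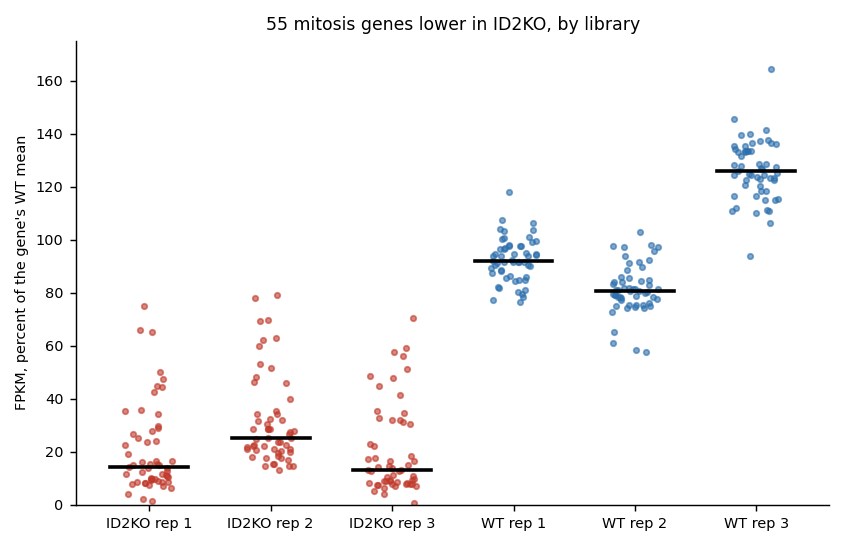
FPKM of the 55 mitosis genes that fell, as a percent of each gene's WT mean (y axis), in each of the 6 libraries (x axis), with 1 point per gene and a black line at the median. The medians of ID2KO replicates 1 to 3 are 14.2%, 25.1% and 13%, and those of the WT libraries 92.1%, 80.7% and 126%.

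**Figure D2:**
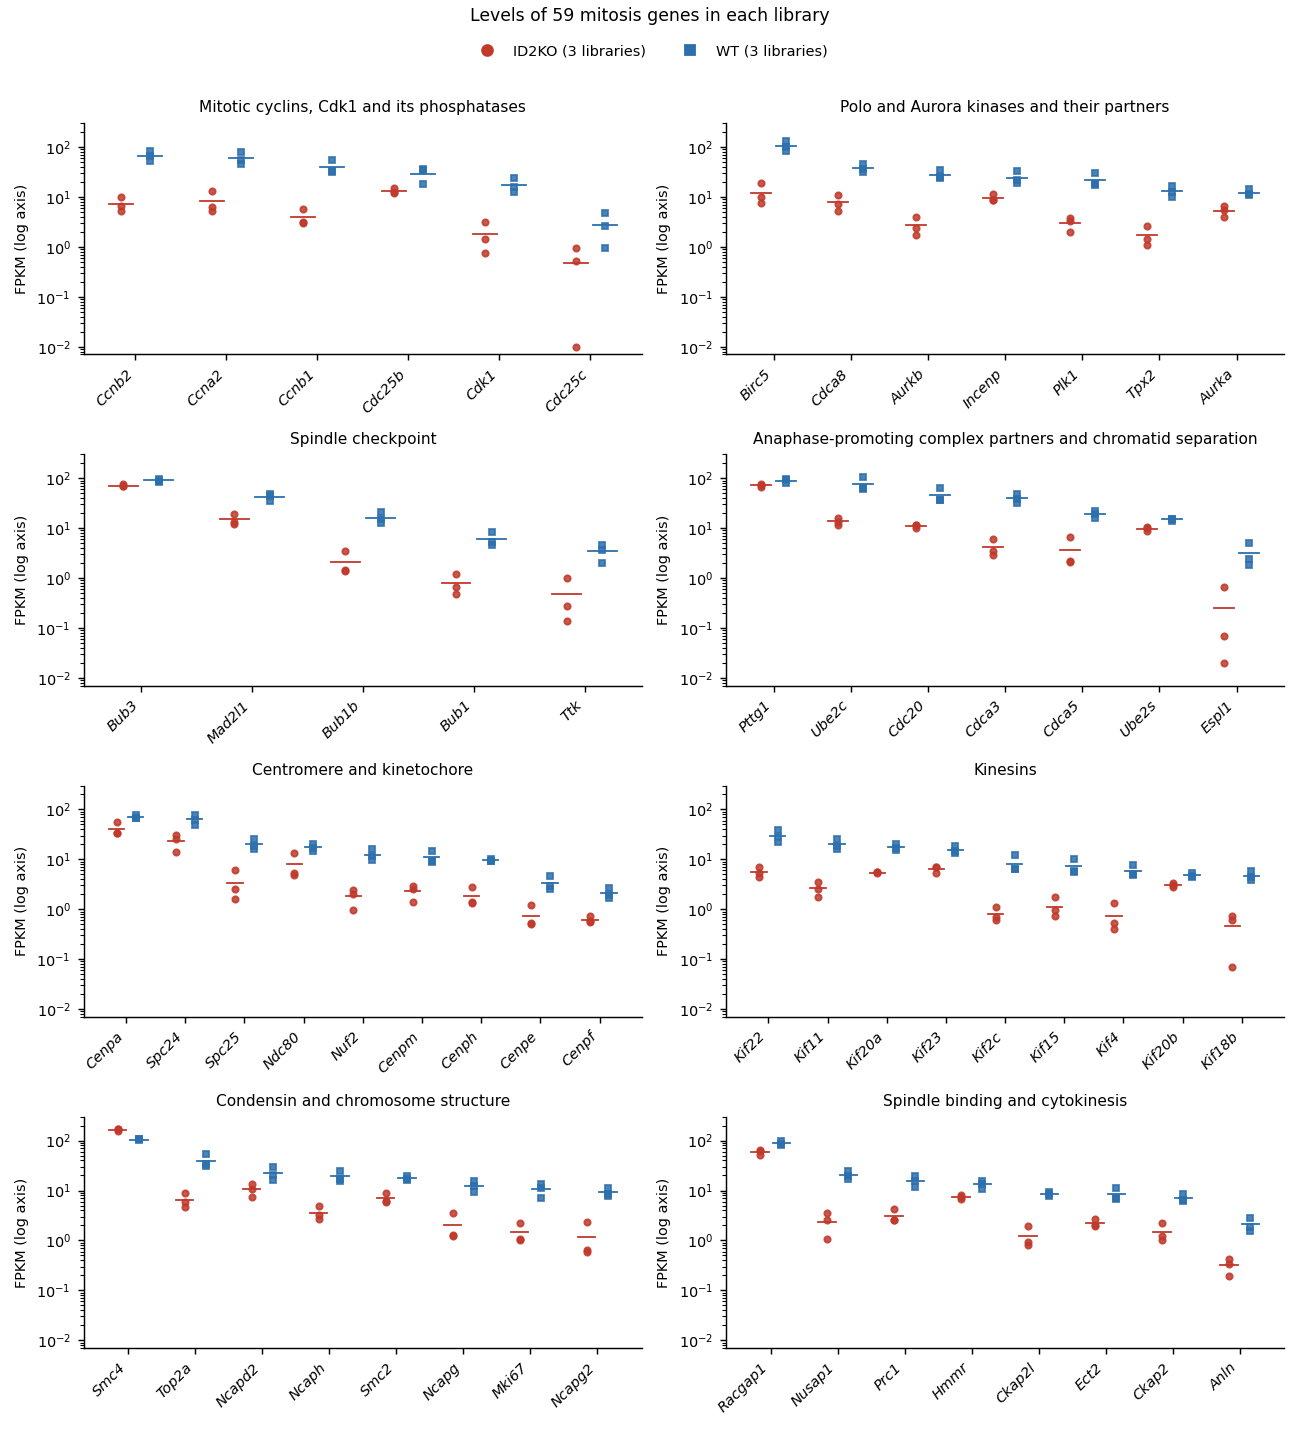
FPKM of each of the 59 genes (y axis, log scale) in the 3 ID2KO libraries (red circles) and the 3 WT libraries (blue squares), in 8 groups by role, with a short line at each group's mean. A level of 0 (Cdc25c in ID2KO replicate 1) is drawn at 0.01. In every gene but Smc4 the 3 ID2KO points lie below the 3 WT points.

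Promoters are shown because these genes moved together and are known for shared elements near their starts. The CHR (cell cycle genes homology region) is bound by the MuvB core of the DREAM complex, which represses such genes in resting cells, and by MuvB with B-Myb and FoxM1 when they are active. The CCAAT box, bound by NF-Y, usually lies upstream of it. RefSeq promoter windows of 300 bases, from 250 before the start of transcription to 50 after, were at hand for 51 of the 59 genes (build GRCm38.p6, the assembly of mm10). For 43 of these a listed start lay within 100 bases of the 5' end of the gene, and for 8 it lay further inside. The windows were searched on both strands for the CHR as TTTGAA or TTCGAA and for the CCAAT box as CCAAT.

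The stretches printed run from 170 bases before the start to 30 after, 5' to 3' on the gene's strand, with CHR and CCAAT matches in capitals on either strand. Shown is the gene with the largest fold change in each group by role that has an entry and may be printed. Ccnb1 (cyclin B1) is at chr13:100786457-100786656 (minus strand), Plk1 (Polo-like kinase) at chr7:122159265-122159464 (plus strand) and Ttk (the checkpoint kinase MPS1) at chr9:83834519-83834718 (plus strand). Espl1 (separase) is at chr15:102296123-102296322 (plus strand), Nuf2 (outer kinetochore) at chr1:169531435-169531634 (minus strand) and Kif2c (a microtubule-depolymerising kinesin) at chr4:117178743-117178942 (minus strand). Ncapg2 (condensin II) is at chr12:116405266-116405465 (plus strand) and Nusap1 (a spindle protein) at chr2:119618128-119618327 (plus strand).
Ccnb1: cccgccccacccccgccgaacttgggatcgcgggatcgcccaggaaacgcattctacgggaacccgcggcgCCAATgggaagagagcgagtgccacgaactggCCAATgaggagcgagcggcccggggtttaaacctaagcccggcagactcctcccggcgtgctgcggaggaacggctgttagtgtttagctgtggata
Plk1: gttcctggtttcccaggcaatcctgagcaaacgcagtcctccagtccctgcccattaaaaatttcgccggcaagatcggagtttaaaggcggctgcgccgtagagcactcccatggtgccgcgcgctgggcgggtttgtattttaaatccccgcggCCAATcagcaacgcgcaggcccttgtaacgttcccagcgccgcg
Ttk: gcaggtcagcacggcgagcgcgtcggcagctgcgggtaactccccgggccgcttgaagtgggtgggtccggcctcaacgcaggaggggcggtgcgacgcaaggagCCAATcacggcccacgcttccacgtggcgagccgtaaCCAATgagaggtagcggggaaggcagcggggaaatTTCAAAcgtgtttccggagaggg
Espl1: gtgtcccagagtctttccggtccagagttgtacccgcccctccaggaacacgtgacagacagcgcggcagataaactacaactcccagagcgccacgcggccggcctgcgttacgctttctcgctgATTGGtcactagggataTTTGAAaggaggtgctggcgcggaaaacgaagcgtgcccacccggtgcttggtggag
Nuf2: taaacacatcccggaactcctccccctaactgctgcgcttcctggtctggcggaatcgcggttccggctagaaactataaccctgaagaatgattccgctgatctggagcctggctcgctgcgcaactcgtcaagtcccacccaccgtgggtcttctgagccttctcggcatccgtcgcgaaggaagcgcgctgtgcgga
Kif2c: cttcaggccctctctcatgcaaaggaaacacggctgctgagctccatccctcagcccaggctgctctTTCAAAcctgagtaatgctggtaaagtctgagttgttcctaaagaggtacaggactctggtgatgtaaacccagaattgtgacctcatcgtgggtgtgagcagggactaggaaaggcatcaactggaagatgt
Ncapg2: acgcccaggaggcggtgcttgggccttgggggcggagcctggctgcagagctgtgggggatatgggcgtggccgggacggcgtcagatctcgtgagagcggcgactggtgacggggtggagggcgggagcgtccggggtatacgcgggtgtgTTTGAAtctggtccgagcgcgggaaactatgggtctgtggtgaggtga
Nusap1: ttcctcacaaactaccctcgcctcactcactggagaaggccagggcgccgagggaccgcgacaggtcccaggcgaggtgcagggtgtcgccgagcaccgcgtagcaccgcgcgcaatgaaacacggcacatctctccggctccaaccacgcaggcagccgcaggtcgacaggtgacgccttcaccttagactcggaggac

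Ttk and Espl1 held both elements in these stretches, with the CHR starting at base 8 after the start in Ttk and 27 bases before it in Espl1. Ncapg2 and Kif2c held a CHR and no CCAAT box. Ccnb1 held 2 CCAAT boxes and no match to the CHR forms searched. Plk1 had its CHR match beyond the stretch printed, and Nuf2 and Nusap1 had no match to either element. Other forms of the CHR were not searched, so a missing match does not show that the element is absent. The start listed for Kif2c lay 3852 bases inside the gene. For comparison, the stretches of both genes that did not pass are Bub3 at chr7:131560200-131560399 (plus strand), from the first of its 2 entries, and Pttg1 at chr11:43425952-43426151 (minus strand), whose listed start lay 1482 bases inside the gene.
Bub3: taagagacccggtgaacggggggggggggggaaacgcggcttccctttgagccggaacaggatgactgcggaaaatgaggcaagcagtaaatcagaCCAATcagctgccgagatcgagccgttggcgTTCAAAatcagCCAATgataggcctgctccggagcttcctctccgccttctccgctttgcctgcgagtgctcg
Pttg1: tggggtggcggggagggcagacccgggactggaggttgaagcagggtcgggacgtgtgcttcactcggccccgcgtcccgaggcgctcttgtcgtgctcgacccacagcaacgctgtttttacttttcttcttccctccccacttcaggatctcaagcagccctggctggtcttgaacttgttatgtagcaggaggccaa

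Bub3 held a CHR and 2 CCAAT boxes, and Pttg1 neither. Over the 51 genes, 42 (82.4%) held a CHR in the window, against 17.2% of the 8638 tested genes with an entry and 21.7% of all 27025 genes in the table. A CCAAT box was held by 37 (72.5%), against 43.8% of the tested genes, and both by 34 (66.7%), against 7.49%. Within 50 bases of the start on either side, 70.6% of the mitosis genes had a CHR and 3.87% of the tested genes did. The 42 genes with a match to the CHR forms searched had a median log2 fold change of -2.46. The 9 without such a match had a median of -2.43. The shares and medians include the 8 mitosis genes whose listed start lay over 100 bases inside the gene, Kif2c and Pttg1 among them. Among the kinesins, all 8 windows held a CHR, that of Kif2c included. In the centromere and kinetochore group 5 of 8 did. Neither the DREAM complex nor NF-Y was measured, and a match is a description of the letters only.

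**Figure D3:**
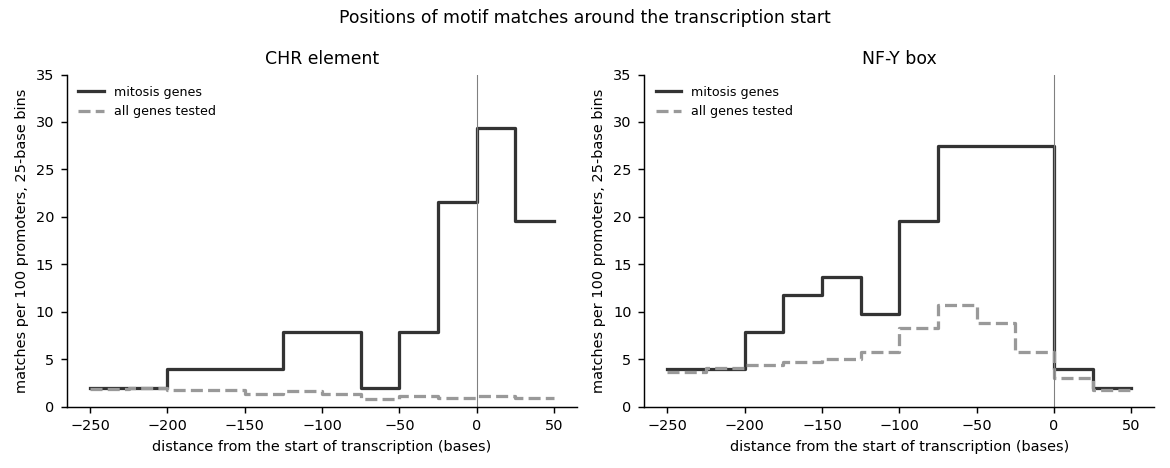
Matches to the CHR (left) and to the CCAAT box, which NF-Y binds (right), per 100 promoters in bins of 25 bases (y axis) against the distance from the start of transcription (x axis), for the 51 mitosis genes with a promoter entry (solid line) and the 8638 tested genes with one (dashed line). CHR matches of the mitosis genes peak at 29.4 per 100 promoters in the first 25 bases after the start.

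The E2F site (TTCCCGC or TTGGCGC, both strands), an element of genes of the G1 to S transition, was in 23.5% of the 51 windows and 14.4% of those of the tested genes. The E box CAGNTG, the form that E proteins bind and that Id2 keeps them from, was in 37.3% and 47.1%. An E2F match to TTGGCGC can share bases with a CCAAT box read on the other strand.

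Mitotic cyclins, Cdk1 and its activating phosphatases fell in all 5 genes tested. Ccnb1, the cyclin that drives Cdk1 into mitosis, had 3.12, 5.87 and 3.05 FPKM in ID2KO, against 31.89, 32.49 and 56.01 FPKM in WT. Ccnb2, the Golgi-associated cyclin B2, had 6.61, 9.82 and 5.3 FPKM in ID2KO, against 65.33, 52.97 and 82.5 FPKM in WT. Ccna2, the cyclin of S and G2 phase, had 6.24, 13.33 and 5.35 FPKM in ID2KO and 54.25, 45.8 and 80.26 FPKM in WT. Every ID2KO library of these cyclins lay far below the lowest WT library. By edgeR, Ccnb1 fell 10.1-fold (log2 fold change -3.34, SE 0.286, adjusted p = 0.000185), Ccnb2 9.37-fold and Ccna2 7.36-fold. Cdk1, the kinase itself, averaged 1.79 ± 1.27 FPKM in ID2KO and 17.7 ± 5.79 FPKM in WT (SD, n = 3 each), and its log2 fold change of -3.33 became -4.02 without ID2KO replicate 2.

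The Cdc25 phosphatases remove the inhibitory phosphates from Cdk1. Cdc25b had 12.58, 11.77 and 15.1 FPKM in ID2KO, against 34.89, 18.06 and 35.68 FPKM in WT. Here the gap was narrow, since WT replicate 2 lay just above the ID2KO libraries, and the fall was 2.27-fold (adjusted p = 0.0117, edgeR). The call was lost without ID2KO replicate 1 (adjusted p = 0.0532, edgeR), without WT replicate 3 (0.0588) and by limma with the small pseudocount (0.0733). Cdc25c had 0, 0.93 and 0.53 FPKM in ID2KO, which were 0, 14 and 8 counts, against 2.63, 0.97 and 4.76 FPKM in WT, or 43, 16 and 77 counts. In the fit without the filter its log2 fold change was -2.52 (SE 0.651, adjusted p = 0.0189, edgeR).

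All 7 genes of the Polo and Aurora kinases and their partners fell. Aurkb, the Aurora kinase of the chromosomal passenger complex, had 1.77, 4 and 2.34 FPKM in ID2KO, against 24.83, 23.61 and 34.28 FPKM in WT, a 10.3-fold fall (log2 fold change -3.37, SE 0.262, adjusted p = 0.000112, edgeR). Aurka, the centrosomal Aurora kinase, fell less, with 5.47, 6.5 and 3.94 FPKM in ID2KO and 10.97, 11.34 and 14.55 FPKM in WT (2.36-fold, adjusted p = 0.00463, edgeR). Its activator Tpx2 fell 7.84-fold, to 1.7 ± 0.787 FPKM in ID2KO against 13.2 ± 3.41 FPKM in WT (SD, n = 3 each). Plk1 fell 7.2-fold.

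The other subunits of the passenger complex are Incenp, the scaffold, Cdca8 (borealin) and Birc5 (survivin). Cdca8 had 7.26, 10.9 and 5.33 FPKM in ID2KO, against 36.76, 31.56 and 45.8 FPKM in WT, and fell 4.93-fold. Incenp had 8.64, 11.25 and 8.59 FPKM in ID2KO and 21.57, 19.08 and 32.5 FPKM in WT, and fell 2.6-fold. Their groups did not overlap, and ID2KO replicate 2 and WT replicate 3 were the high libraries of both genes.

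Birc5, on mm10 chromosome 11 from 117849237 to 117855743, gave different sizes of fall in the 2 deposited units. Its level was 9.79, 19.44 and 7.6 FPKM in ID2KO, against 102.5, 82.06 and 129.67 FPKM in WT, a ratio of 8.53. Its expected counts were 187.25, 251.31 and 159.73 in ID2KO and 951.06, 752.72 and 1141.63 in WT, a 4.43-fold fall relative to library totals and 4.49-fold by edgeR (adjusted p = 0.000226). The length listed beside these values, the RSEM average over the gene's transcripts, was 2383, 1683 and 2695 bases in ID2KO and 1121, 1094 and 1075 bases in WT. The listed length was thus longest in the libraries with the lowest level. Of the 10890 genes tested, only 2 (0.0184%) had every length of either group over 1.5 times every length of the other. Birc5 was also the only 1 of the 59 where the log2 ratios in the 2 units were more than 0.2 apart.

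In the spindle checkpoint group 4 of 5 genes fell. Mad2l1, which binds and holds the activator of the anaphase-promoting complex, had 12.28, 19.46 and 13.56 FPKM in ID2KO, against 43.95, 34.56 and 48.98 FPKM in WT. Bub1b (BubR1), part of the same inhibitory complex, had 1.42, 3.54 and 1.36 FPKM in ID2KO and 15.29, 12.86 and 20.76 FPKM in WT. Ttk, the kinase at the top of the checkpoint, had 0.28, 0.99 and 0.14 FPKM in ID2KO and 3.71, 2.01 and 4.63 FPKM in WT, with the largest fold change of these 5 genes (log2 fold change -2.98, SE 0.553, adjusted p = 0.00702, edgeR). Without ID2KO replicate 2 that of Ttk was -4.1. Bub1b fell 7.86-fold, the kinase gene Bub1 7.74-fold and Mad2l1 2.86-fold.

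Bub3, the WD-repeat partner that brings Bub1 and BubR1 to kinetochores, stood apart from them. It had 76.64, 68.89 and 68.8 FPKM in ID2KO, against 83.43, 88.53 and 98.77 FPKM in WT. The groups did not overlap, and its change of -0.35 on the log2 scale missed the threshold (SE 0.104, adjusted p = 0.057, edgeR), though DESeq2 gave an adjusted p of 0.0382. The ratio of Bub3 to Bub1 in FPKM was 116, 56.5 and 146 in ID2KO, against 16, 19.6 and 12 in WT.

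Partners of the anaphase-promoting complex and genes of chromatid separation fell in 6 of 7. Ube2c, the E2 enzyme that starts ubiquitin chains for the complex, had 11.54, 15.96 and 13.38 FPKM in ID2KO, against 61.56, 64.42 and 103.75 FPKM in WT, and fell 5.67-fold (log2 fold change -2.5, SE 0.215, adjusted p = 0.000185, edgeR). Cdc20, the activator of the complex, had 11.39, 11.38 and 10.15 FPKM in ID2KO and 36.8, 35.92 and 63.54 FPKM in WT, and fell 4.17-fold. Both had 3 similar ID2KO libraries and their highest WT level in replicate 3. Ube2s, the E2 that extends the chains, had 9.93, 10.44 and 8.9 FPKM in ID2KO and 15.6, 15.51 and 14.13 FPKM in WT, and stood at the threshold (log2 fold change -0.64, adjusted p = 0.0488, edgeR). Its call was lost when any single library was left out (adjusted p from 0.0617 to 0.188, edgeR), by DESeq2 (0.0559) and with the replicate number as a block (0.0792). In edgeR it was also lost with DESeq2's factors (adjusted p = 0.0517), without the filter (0.0699) and with the B cell term (0.0704). An exon of Rpl28 overlaps Ube2s on the other strand, and the sources used here do not say if reads were counted by strand.

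Pttg1 (securin), the inhibitor that holds separase until anaphase, did not pass. It had 78.35, 68.33 and 73.26 FPKM in ID2KO, against 91.68, 95.36 and 79.17 FPKM in WT (log2 fold change -0.27, SE 0.122, adjusted p = 0.187, edgeR). Its expected counts were not whole numbers, so part of its reads was shared with other genes or places. Separase itself, Espl1, had 0.07, 0.66 and 0.02 FPKM in ID2KO and 2.45, 1.8 and 5.14 FPKM in WT, with 4, 34 and 1 counts in ID2KO and 138, 103 and 287 in WT. On the log2 scale its change of -3.67 (SE 0.739, adjusted p = 0.0105, edgeR) had the largest size of the 58. The size of this change varied with single libraries. It was -5.97 without ID2KO replicate 2 (adjusted p = 0.000513, edgeR). Without WT replicate 3 it was -3.13 and the call was lost (adjusted p = 0.0557, edgeR). Cdca5 (sororin), which protects cohesin until mitosis, fell 5.34-fold (log2 fold change -2.42, and -3.12 without ID2KO replicate 2). Cdca3, known in frogs as part of a ligase that promotes mitotic entry, fell 9.64-fold.

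All 9 genes of the centromere and kinetochore fell. Cenpa, the histone H3 variant that marks centromeres, had 33.31, 54.97 and 33.64 FPKM in ID2KO, against 66.66, 66.01 and 78.75 FPKM in WT, the smallest fall of the group (1.76-fold, adjusted p = 0.0135, edgeR). Its call was lost without ID2KO replicate 1 (adjusted p = 0.0627, edgeR), ID2KO replicate 3 (0.0773) or WT replicate 3 (0.0651). With all libraries, limma also lost it (adjusted p = 0.0525, and 0.0785 with the small pseudocount). Cenpf, a farnesylated outer kinetochore protein, fell 3.4-fold, the motor Cenpe 4.63-fold, and the inner kinetochore genes Cenpm and Cenph 4.76-fold and 5.38-fold.

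The Ndc80 complex, which grips microtubules, is built of Ndc80, Nuf2, Spc24 and Spc25, and its 4 genes fell by different amounts. Nuf2 had 2.02, 2.47 and 0.98 FPKM in ID2KO, against 11.58, 9.67 and 15.76 FPKM in WT (6.85-fold, log2 fold change -2.78, SE 0.308, adjusted p = 0.000478, edgeR). Ndc80 had 4.83, 13.71 and 5.28 FPKM in ID2KO and 14.81, 16.99 and 20.14 FPKM in WT. Its ID2KO replicate 2 came close to the WT libraries. The log2 fold change of Ndc80 was -1.15 (adjusted p = 0.0488, edgeR) and -1.77 without ID2KO replicate 2, and the call was lost without any of the other libraries (adjusted p from 0.0671 to 0.188, edgeR). With all libraries, the Ndc80 call was also lost by limma (adjusted p = 0.0819, and 0.117 with the small pseudocount). In edgeR it was lost with DESeq2's factors (adjusted p = 0.0521) and with a minimum of 5 FPKM (0.0512). Spc24 had 14.28, 30.34 and 26.13 FPKM in ID2KO and 62.77, 48.79 and 77.69 FPKM in WT, a 2.71-fold fall. Spc25 fell 6-fold, with a log2 fold change of -2.59, or -3.32 without ID2KO replicate 2. Reads of Ndc80, Nuf2 and Spc24 were in part shared with other genes or places, since their expected counts were not whole numbers.

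The 9 mitotic kinesins all fell. Kif22, a chromosome-bound motor, had 4.49, 6.9 and 5.43 FPKM in ID2KO, against 27.66, 21.78 and 38.63 FPKM in WT. Kif11 (Eg5), which pushes the spindle poles apart, had 1.74, 3.55 and 2.54 FPKM in ID2KO and 18.7, 16.08 and 25.11 FPKM in WT. Kif20a, a motor of the spindle midzone, had 5.21, 5.63 and 5.48 FPKM in ID2KO and 16.66, 15.57 and 20.46 FPKM in WT. The ID2KO libraries of Kif20a hardly differed among themselves, with an SD of 0.213 FPKM. Kif11 fell 7.76-fold (adjusted p = 0.000125, edgeR), Kif22 5.3-fold and Kif20a 3.23-fold.

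Kif2c had 0.7, 1.09 and 0.6 FPKM in ID2KO and 6.3, 6.42 and 12 FPKM in WT, the largest kinesin fall (10.4-fold, log2 fold change -3.38, SE 0.337, adjusted p = 0.000308, edgeR). Kif18b, which also shortens astral microtubules, followed with 10.1-fold, the chromosome-bound Kif4 with 7.98-fold (log2 fold change -3, and -3.64 without ID2KO replicate 2) and the spindle motor Kif15 with 6.53-fold. Kif20b, a motor of late cytokinesis, fell least, with 3.11, 3.32 and 2.75 FPKM in ID2KO and 4.36, 4.63 and 5.3 FPKM in WT (1.57-fold, adjusted p = 0.019, edgeR). Its call was lost without ID2KO replicate 1 (adjusted p = 0.0534, edgeR), ID2KO replicate 3 (0.105) or WT replicate 3 (0.0864). Kif23, the motor of centralspindlin, fell 2.43-fold.

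Condensin and chromosome structure genes held the single rise. Smc4, an ATPase subunit shared by condensin I and II, on mm10 chromosome 3 from 69004738 to 69034623, had 172.79, 155.38 and 171.43 FPKM in ID2KO, against 106.47, 106.37 and 101.27 FPKM in WT. All ID2KO libraries lay above all WT libraries, and the rise was 1.58-fold (log2 fold change 0.66, SE 0.103, adjusted p = 0.00279, edgeR). It was the most abundant of the 59 genes in ID2KO, and it passed under each of the alternatives run, with log2 fold changes from 0.57 to 0.72. Smc2, its partner in the SMC dimer, moved the other way, with 6.31, 9.08 and 5.76 FPKM in ID2KO and 17.21, 16.13 and 19.51 FPKM in WT (2.53-fold lower, adjusted p = 0.000577, edgeR).

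The ratio of Smc4 to Smc2 in FPKM was 27.4, 17.1 and 29.8 in ID2KO, against 6.19, 6.59 and 5.19 in WT. This was 1 of 5 ratios between partners, chosen after the values were seen, with Bub3 to Bub1, Ube2s to Ube2c, Spc24 to Spc25 and Ndc80 to Nuf2. In each, the first gene named was the one that had fallen less or, for Smc4, had risen. That the ID2KO libraries lay above the WT libraries in all 5 thus followed from the choice. The exact two-sided permutation p was 0.1 for each ratio, the smallest that 3 against 3 libraries can give, and 0.1 after adjustment over the 5. After such a choice these p-values describe the separation of the libraries and test nothing.

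The 4 non-SMC condensin genes of the list also fell. Ncapd2 of condensin I had 7.49, 13.67 and 10.68 FPKM in ID2KO, against 20.23, 16.31 and 29.28 FPKM in WT, a 2.1-fold fall whose call was lost without ID2KO replicate 1 (adjusted p = 0.0616, edgeR), ID2KO replicate 3 (0.0708) or WT replicate 3 (0.0687). With all libraries, limma also lost the Ncapd2 call (adjusted p = 0.0613, and 0.089 with the small pseudocount). Ncapg fell 6.24-fold (log2 fold change -2.64, and -3.28 without ID2KO replicate 2) and Ncaph 5.51-fold. Ncapg2 of condensin II had 0.65, 2.29 and 0.58 FPKM in ID2KO and 8.38, 7.68 and 11.36 FPKM in WT, a log2 fold change of -2.99 that became -3.88 without ID2KO replicate 2. The remaining condensin II subunits, from the list of further mitotic genes, differed by less. Ncaph2 was 1.28-fold lower (adjusted p = 0.0419, edgeR), a call lost without ID2KO replicate 1 (0.118), ID2KO replicate 3 (0.184), WT replicate 1 (0.0844) or WT replicate 3 (0.149) and by limma (0.116). In edgeR it was also lost without the filter (adjusted p = 0.0585), with the replicate block (0.0636) and with the B cell term (0.0855). Ncapd3 stood at -0.13 on the log2 scale (adjusted p = 0.499, edgeR).

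Top2a, the topoisomerase that untangles sister chromatids, had 4.64, 8.97 and 5.81 FPKM in ID2KO, against 33.42, 31.4 and 53.81 FPKM in WT, and fell 6.19-fold (adjusted p = 0.000283, edgeR). Mki67, whose product Ki-67 coats mitotic chromosomes and is the usual stain for dividing cells, averaged 1.44 ± 0.682 FPKM in ID2KO and 10.6 ± 3.4 FPKM in WT (SD, n = 3 each), and fell 7.48-fold.

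**Figure D4:**
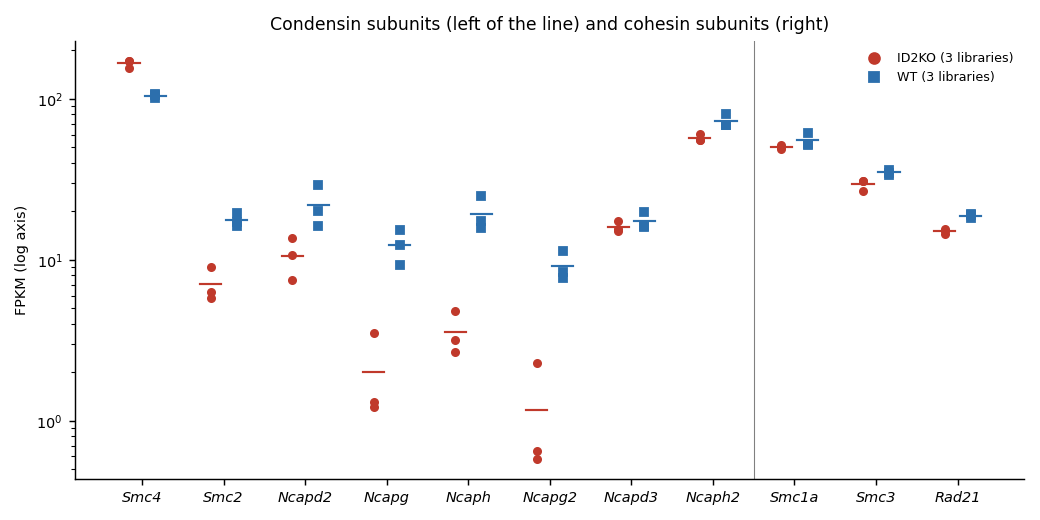
FPKM (y axis, log scale) of 8 condensin genes and, right of the line, 3 cohesin genes in the 3 ID2KO libraries (red circles) and the 3 WT libraries (blue squares), with a short line at each mean. Smc4 is the gene whose ID2KO points, at 155.38 to 172.79 FPKM, lie above its WT points, at 101.27 to 106.47 FPKM.

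All 8 genes of spindle binding and cytokinesis fell. Nusap1, which bundles spindle microtubules, had 2.61, 3.49 and 1.08 FPKM in ID2KO, against 19.31, 17.02 and 25.02 FPKM in WT (8.64-fold, log2 fold change -3.11, SE 0.31, adjusted p = 0.000308, edgeR). Hmmr, a spindle protein also known as a hyaluronan receptor, had 6.64, 8.31 and 7.43 FPKM in ID2KO and 13.73, 10.74 and 15.17 FPKM in WT, a 1.79-fold fall. Racgap1, the GTPase-activating partner of Kif23 in centralspindlin, had 66.2, 52.64 and 61.97 FPKM in ID2KO and 87.31, 80.35 and 96.87 FPKM in WT. Its fall was the smallest of the group (1.46-fold, adjusted p = 0.0215, edgeR), and the call was lost without ID2KO replicate 3 (adjusted p = 0.0812, edgeR), WT replicate 1 (0.0578) or WT replicate 3 (0.0918). Limma with the small pseudocount also lost the Racgap1 call (adjusted p = 0.0651). The ID2KO libraries of Hmmr and Racgap1 lay close below their WT libraries.

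Among the rest of the group, the midzone bundler Prc1 fell 4.97-fold, the cytokinesis gene Ect2 3.86-fold and Anln (anillin), the scaffold of the contractile ring, 6.6-fold. The microtubule-binding genes Ckap2 and Ckap2l fell 4.75-fold and 7.04-fold. A mean under 1 FPKM was found for 10 of the 59 genes in ID2KO and for 0 in WT.

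**Figure D5:**
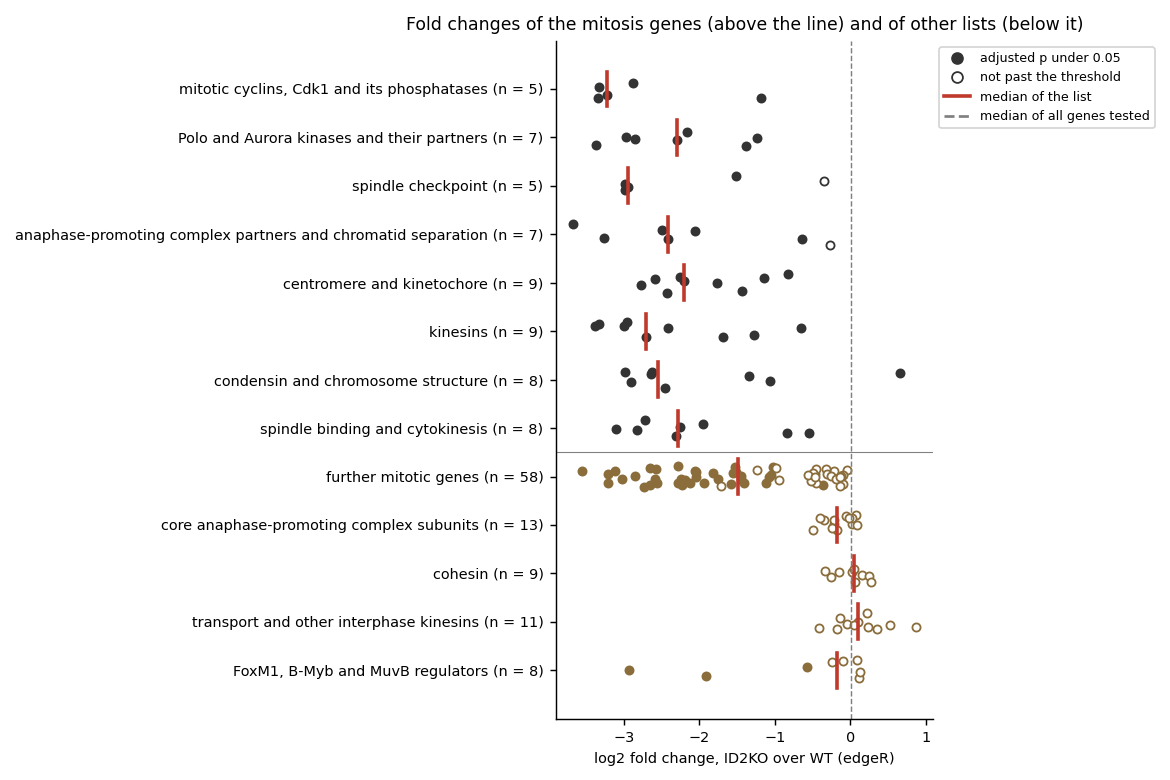
Log2 fold change of ID2KO over WT by edgeR (x axis) for each tested gene, by group (y axis), with the mitosis genes above the line and lists of other genes below it. Filled points passed the threshold, red bars are medians, and the dashed line is the median of all genes tested (0.01). Medians of the 8 groups above the line lie between -3.23 and -2.21.

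A list of 62 further mitotic genes was read in the same fit. Of the 58 tested, 36 fell and 0 rose by edgeR, with a median of -1.49. At an unadjusted p under 0.05, 46 were lower and 0 higher, and DESeq2 and limma called 41 and 33 lower and 0 higher. Over all 10890 genes tested, DESeq2 called 1069 lower and 494 higher, and limma 735 lower and 229 higher. The share of all genes at that unadjusted p is not given. Counts at it, here and for the lists below, thus have no background beside them. Pbk, a mitotic kinase, had 0.91, 1.72 and 0.47 FPKM in ID2KO, against 10.85, 9.79 and 15.52 FPKM in WT, and fell 11.8-fold. Nek2, a centrosome kinase, fell 9.25-fold, with 1.58, 1.68 and 1.11 FPKM in ID2KO and 10.84, 11.35 and 18.06 FPKM in WT. Zwint, a kinetochore linker, had 47.17, 40.91 and 41.42 FPKM in ID2KO and 40.71, 48.08 and 43.94 FPKM in WT (adjusted p = 0.851, edgeR). Sgo2a, a protector of centromeric cohesin, had 5.24 ± 1.12 FPKM in ID2KO and 5.54 ± 0.304 FPKM in WT (SD, n = 3 each, adjusted p = 0.743, edgeR).

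Core subunits of the anaphase-promoting complex are present throughout the cell cycle. The list of 13 tested genes read for them also holds Fzr1, which is an activator and no core subunit. Of these 13, 0 passed by edgeR or limma, 2 were lower by DESeq2, and 3 were lower before adjustment (p under 0.05). Their median was -0.18. Fzr1 (Cdh1), the activator used after mitosis, had 23.8 ± 4.1 FPKM in ID2KO and 33.3 ± 6.52 FPKM in WT (adjusted p = 0.0644, edgeR), and Cdc16 22.9 ± 3.06 FPKM in ID2KO and 29.9 ± 4.91 FPKM in WT (0.0909; SD, n = 3 each). The DESeq2 calls were Fzr1 and Anapc5, and Fzr1 also passed in edgeR without the filter (adjusted p = 0.0441) and without ID2KO replicate 2 (0.0251). Anapc1 and Anapc13 had log2 fold changes of 0.02 and -0.02.

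Cohesin, which holds sister chromatids together and also shapes interphase chromatin, had 0 of 9 genes called by edgeR, by limma or by DESeq2. At an unadjusted p under 0.05, 2 were lower and 1 was higher, and the median was 0.05. Its kleisin gene Rad21 had 15.15, 14.45 and 15.55 FPKM in ID2KO, against 18.95, 18.25 and 19.3 FPKM in WT (log2 fold change -0.34, adjusted p = 0.0647, edgeR). The loader gene Nipbl stood at 0.27 on the log2 scale (adjusted p = 0.0897, edgeR), and those of Stag1 and Pds5b were 0.02 and 0.05. In edgeR, Rad21 passed as lower with the B cell term (adjusted p = 0.0497), and Pds5a, a cohesin regulator, as higher without ID2KO replicate 2 (0.0369).

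A list of transport and other interphase kinesins, which also holds light chain genes, likewise had 0 of 11 tested genes called by edgeR, limma or DESeq2. An unadjusted p under 0.05 was found for 3 higher and 0 lower, and the median was 0.1. Kif5b, the heavy chain of conventional kinesin, had 42.34, 41.35 and 42.36 FPKM in ID2KO, against 41.02, 42.66 and 37.04 FPKM in WT. The light chain genes Klc2 and Klc4 had log2 fold changes of 0.87 and 0.52 (adjusted p = 0.159 and 0.0755, edgeR), and Kif3b one of -0.04. With the B cell term Klc4 passed as higher (log2 fold change 0.66, adjusted p = 0.0289, edgeR). Of the promoters with an entry, a CHR was in 2 of 13 of these genes, 1 of 12 genes of the anaphase-promoting complex list and 1 of 6 cohesin genes. It was in 27 of 50 of the further mitotic genes.

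Regulators that bind the CHR fell in part. Mybl2 (B-Myb) had 0.84, 1.39 and 0.41 FPKM in ID2KO, against 6.31, 5.73 and 7.89 FPKM in WT (7.63-fold lower, adjusted p = 0.000509, edgeR). Foxm1 had 0.65, 1.35 and 0.99 FPKM in ID2KO and 3.57, 2.62 and 4.91 FPKM in WT (3.77-fold lower, adjusted p = 0.00379, edgeR). Both are themselves transcribed in cycling cells. Of the MuvB core, which is present in resting cells too, Lin54, its DNA-binding subunit, was 1.48-fold lower (adjusted p = 0.036, edgeR). The Lin54 call was lost with the B cell term (adjusted p = 0.0585, edgeR), by limma (0.078), and without ID2KO replicate 3 (0.156) or any WT replicate (0.0509 to 0.127). Lin9 stood at 6.32 ± 1.44 FPKM in ID2KO and 6.67 ± 1.13 FPKM in WT, and Lin37, Lin52 and Rbbp4 did not pass. Dyrk1a, the kinase that starts DREAM assembly, had 13.6 ± 0.352 FPKM in ID2KO and 12.7 ± 1.3 FPKM in WT (SD, n = 3 each). In all 3 of the 8 genes fell and 0 rose by edgeR, where 4 were lower and 0 higher at an unadjusted p under 0.05, and DESeq2 and limma called 3 and 2 lower and 0 higher.

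Markers of other cells were read beside these changes. Bulk RNA does not tell which cells made these mRNAs, and the sorted CD8+ T cells may be a source of some. None of the 7 tested B cell markers passed (0 by edgeR, 0 by limma, 0 by DESeq2), and before adjustment 0 had a p under 0.05. Without ID2KO replicate 2, the library of its group with the highest B cell marker sum, all 7 passed as lower, with log2 fold changes from -2.57 for Ebf1 to -0.99 for Cd22 (adjusted p from 0.0143 to 0.0314, edgeR). The dendritic and myeloid list held 3 genes that fell (Itgax, Zbtb46 and Batf3), with a summed level of 27.9 to 34.75 FPKM in ID2KO and 43.5 to 48.04 FPKM in WT, while Csf1r and Flt3 were under 1 FPKM in every library. Lyz2, a lysozyme gene, made up most of the ID2KO sums, with 26.54, 29.97 and 27.02 FPKM in ID2KO and 28.18, 20.19 and 19.31 FPKM in WT (log2 fold change 0.28, adjusted p = 0.352, edgeR). Without Lyz2 the other 7 genes summed to 1.36, 4.78 and 1.99 FPKM in ID2KO and 19.86, 23.49 and 24.19 FPKM in WT. The plasma cell list held 2 genes that fell (Jchain and Prdm1), with a sum of 92.27 to 109.95 FPKM in ID2KO and 105.96 to 125.13 FPKM in WT. Xbp1 made up most of these sums, with 73.14 to 82.47 FPKM in ID2KO and 70.15 to 80.36 FPKM in WT (log2 fold change 0.02). Sdc1, Irf4 and Mzb1 did not pass (adjusted p = 0.531, 0.347 and 0.102, edgeR). In edgeR Mzb1 passed as lower without the filter (0.0377), with the replicate block (0.0328), and without ID2KO replicate 2 (0.0249) or WT replicate 1 (0.0188). The NK cell list summed to 8.18 to 11.88 FPKM in ID2KO and 5.62 to 9.04 FPKM in WT, with Ncr1 at 0.18 FPKM or less. Most of each NK cell sum was Eomes, at 7.25 to 9.73 FPKM in ID2KO and 4.65 to 8.38 FPKM in WT. Klrb1c and Klra8 stayed at 1.5 FPKM or less in every library. Eomes levels overlapped between the groups. By edgeR, Eomes was called higher without WT replicate 1 (adjusted p = 0.0203) but not with all libraries (0.194). The part of the dendritic, plasma and NK cell lists in the falls of the mitosis genes was not tested. Globin and other erythroid genes summed to 8.92, 0.09 and 12.33 FPKM in ID2KO replicates 1 to 3, against 0, 0.45 and 0.2 FPKM in WT.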

How the data were processed

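The 6 libraries, 3 ID2KO and 3 WT, hold RNA of CD8+ T cells isolated by flow sorting. CASAVA, Bowtie2, RSEM and mm10 are named in the submitters' processing notes. Per the file headers, the authors deposited for each gene an expected count (reads assigned by RSEM, those of several places divided) and an FPKM value. Between 25% and 26.2% of the expected counts of a library were not whole numbers. In the 59 genes this was so for 13, and exons of 15 overlap a gene on the other strand in GENCODE M21. A gene missing from a table was taken as 0.

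Tables were joined by gene number, and symbols came from the RefSeq table of GRCm38.p6 (16707 of 16749). Expected counts were rounded, normalized by TMM, and a two-sided quasi-likelihood fit was made in edgeR 4.0.16 (R 4.3.3). The filter left out 5859 genes. Standard errors are the log2 fold change divided by the square root of F. As alternatives, DESeq2 1.42.0 was run, edgeR was given DESeq2's factors, and the others were limma 3.58.1 on log2(FPKM + 1) and log2(FPKM + 0.1), no filter, a minimum of 5 FPKM, the replicate number as a block, B cell marker level as a term, and each library left out. The script was tested on simulated data. Libraries of a group were no duplicates (chi-square per degree of freedom 5.62 to 18.6). Depth per library, between 7699181 and 8495123 counts, limits precision most for genes with few counts.

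Members, lists and alternatives were chosen with earlier results of these data known. Values in every library are given, in each group by role, for the 3 genes with the highest mean FPKM, those with the largest and smallest size of fold change, and those untested or not past the threshold. Of each other list, the 2 largest and 2 smallest sizes of change are named. Ncapd3, Ncaph2, Anapc5, Pds5a, Lin54, Lin37, Lin52, Rbbp4, single marker genes and the partner ratios were named after their values were seen. Promoter windows are RefSeq's for GRCm38.p6 and were read with Python 3.11.15 and pandas 2.3.3. Figures were drawn with matplotlib 3.10.9, and exact tests run with scipy 1.17.1.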

Additional observations from a re-analysis of the deposited data

How the results depend on the processing

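The count of mitosis genes that fell, 55, stayed between 45 and 55 under the alternatives with all libraries and between 47 and 54 without 1 library, and the count that rose stayed at 1. With a minimum of 5 FPKM 45 of 49 tested fell. Either filter could be met through the 3 WT libraries alone, as by Ttk and Espl1 at 1 FPKM and by Cdk1 and Aurkb at 5 FPKM. For such genes a high WT level was a condition of being tested, so the filtered counts do not bear on their fall. Without a filter the count was 55, though not of the same genes. Cdc25c, untested before, was called (adjusted p = 0.0189, edgeR) and Ube2s was not (0.0699). Of the 55 in the main fit, 47 fell under every alternative that tested them. The others were Cdc25b, Cenpa, Espl1, Kif20b, Ncapd2, Ndc80, Racgap1 and Ube2s. Bub3 passed by DESeq2 alone. No fold change of the 58 changed sign. Over all genes, 955 fell and 342 rose. Limma on log2(FPKM + 0.1) gave 605 and 162. Leaving out 1 library gave 517 to 1082 that fell and 84 to 480 that rose, the lowest counts without ID2KO replicate 3 and the highest without ID2KO replicate 2. With the replicate number as a block, 888 fell and 295 rose over all genes and 54 mitosis genes fell. The numbers share no source in the labels, and same-numbered libraries had correlations of deviation of 0.118, 0.075 and -0.03, so they were not taken as pairs. Of the 20 genes of the other lists named by the rule, the only ones there whose sign was followed, 10 with values near 0 changed sign. Without 1 library, the log2 fold changes ranged over Sgo2a -0.21 to 0.07, Zwint -0.11 to 0.02, Anapc13 -0.18 to 0.12, Anapc1 -0.07 to 0.12, Pds5b -0.1 to 0.22, Stag1 -0.0021 to 0.07, Kif5b -0.02 to 0.1, Kif3b -0.14 to 0.11, Lin9 -0.27 to 0.08 and Dyrk1a -0.0029 to 0.15. Anapc13 stood at 0.0024 and 0.0027 in the limma fits, and with the B cell term Anapc1 stood at -0.02 and Kif5b at -0.01. None of these passed in any fit. The cause of these changes was not tested. Depth limits the low genes most: Espl1 rested on 39 counts in ID2KO and Cdc25c on 22.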

Other observations

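The genes of the list that kept high levels in ID2KO were few. A mean over 40 FPKM was reached there by 5 of the 59 (Smc4, Pttg1, Bub3, Racgap1 and Cenpa), against 13 in WT. These were chosen after their values were seen. Reads of Pttg1 and Racgap1 were in part shared with other genes or places, since their expected counts were not whole numbers. Among the further mitotic genes, Cks2, a small Cdk1-binding subunit, was similar, with 119.75, 121 and 119.77 FPKM in ID2KO and 165.95, 127.82 and 150.31 FPKM in WT (log2 fold change -0.32, adjusted p = 0.127, edgeR, and 0.0493 without WT replicate 2), while its close relative Cks1b fell 4.34-fold, to 24.4 ± 6.4 FPKM in ID2KO against 105 ± 18.7 FPKM in WT (SD, n = 3 each).

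The listed length of Ttk was 2711, 2733 and 2711 bases in ID2KO and 2904, 2904 and 2889 bases in WT, a small gap beside that of Birc5.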
